A study of Mus musculus with 12 samples.

Results

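The genes described here are targets of the transcriptional co-activators YAP and TAZ, encoded by Yap1 and Wwtr1. The list named 33 genes, by symbol and without a cut on measured values, and they were looked up by current symbol or synonym in the annotation of the array platform. Of these, 31 were measured, among 17742 named genes on the array, and each was read from its brightest probe. Ccn2 was found under its older symbol Ctgf and Ajuba under Jub, while no probe carried the name of Areg or Myof in this annotation.

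Whole hearts were taken on postnatal day 8 from mice of a C57bl/6 X 129 hybrid background. The group labelled Salvador mutant (Salv CKO) held 2 biological samples and the group labelled wild-type, called Control, held 2. Each sample was hybridised in a single colour (Cy5) to 3 technical arrays, 12 arrays in all, and the arrays of a sample were averaged and counted once. The labels do not name the Cre driver, the deleted part of the Salvador gene or any pooling of hearts, and the source label reads embryonic heart where stage and protocol give postnatal day 8.

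The Hippo pathway is a kinase cascade in which Salvador (Sav1) brings the Mst kinases to the Lats kinases, which phosphorylate YAP and TAZ and hold them in the cytoplasm. When the cascade is low, YAP and TAZ enter the nucleus, bind the TEAD factors and switch on genes of growth, cell shape, adhesion and matrix. Several targets, such as the angiomotins and Ptpn14, encode proteins that restrain YAP in turn. In the neonatal heart the pathway is known for limiting the division of heart muscle cells.

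Levels below are log2(intensity + 1) after quantile normalization, and a difference is the mean of the Salv CKO samples minus the mean of the Control samples on that scale. Differences of dim probes are understated on it. In tissue RNA, fewer cells of a type and less RNA per cell cannot be told apart. Probes differ in how brightly they report a transcript, so levels were compared between samples and not between genes.

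The Sav1 probe did not follow the labels. Levels of 8.06 and 8.52 were read in Salv CKO 1 and 2, and of 8.75 and 8.08 in Control 1 and 2. The lowest samples were thus 1 of each label, and the names Salv CKO and Control are used below as labels only. Heart muscle genes were bright in every sample, with Tnnt2 between 14.99 and 15.31, so the labelled tissue is seen in the marker levels. Airway markers were uneven: Scgb1a1, a secretory protein of the airway, had levels of 8.14 and 4.07 in Salv CKO 1 and 2 and of 3.68 and 11.19 in Control 1 and 2. Sftpd, a surfactant protein, had levels of 6.39 and 2.39, and of 2.60 and 6.54, in the same order. Summed over the 10 lung and thymus markers, the normalized intensity was 1003 and 289 in the Salv CKO samples and 315 and 2857 in the Controls. In Salv CKO 1 and Control 2 the largest part of this sum was Scgb1a1, with a mean intensity of 2125 in Control 2, so the sum largely repeats that gene. The Scgb1a1 arrays of Salv CKO 1 were uneven: their mean intensity was 455, near the 468 of Nuak2, whose level there was 9.10. The part of other tissue in the results was not tested.

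No target gene passed the test between the groups. In limma, 0 of 31 members reached an adjusted p of 0.05 (smallest adjusted p = 0.999), against 0% of the 26423 probes. In limma without adjustment, 0 of 31 members were under 0.05, where 3.96% of all probes were, and the smallest value was 0.0935 for Amotl2. With 2 samples against 2, an exact two-sided permutation test cannot go below a p of 0.333. Of the members, 13 had a positive and 18 a negative difference, where 48.6% of all probes were positive. The median difference was -0.042, against -0.010 over all probes, and single differences ran from -0.43 (Rbms3) to 0.75 (Sgcd). A size of at least 0.5 was reached by 4 members (Sgcd, Amotl2, Ankrd1 and Sntb1), against 17.2% of all probes. With each array centred on its median in place of quantile normalization, 6 of 31 members were positive and 40.7% of all probes, so the balance of signs depends on the scaling.

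Few members separated the labels. The groups did not overlap for 5 of 31 members, against 30.6% of all probes, so this count lay below the background. Amotl2 and Cav1 were higher in both Salv CKO samples (14.8% of all probes), and Axl, Gadd45b and Rbms3 were lower in both (15.8%). The difference exceeded both within-group gaps for 3 members, Amotl2, Axl and Gadd45b, against 18.5% of all probes.

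**Figure D1:**
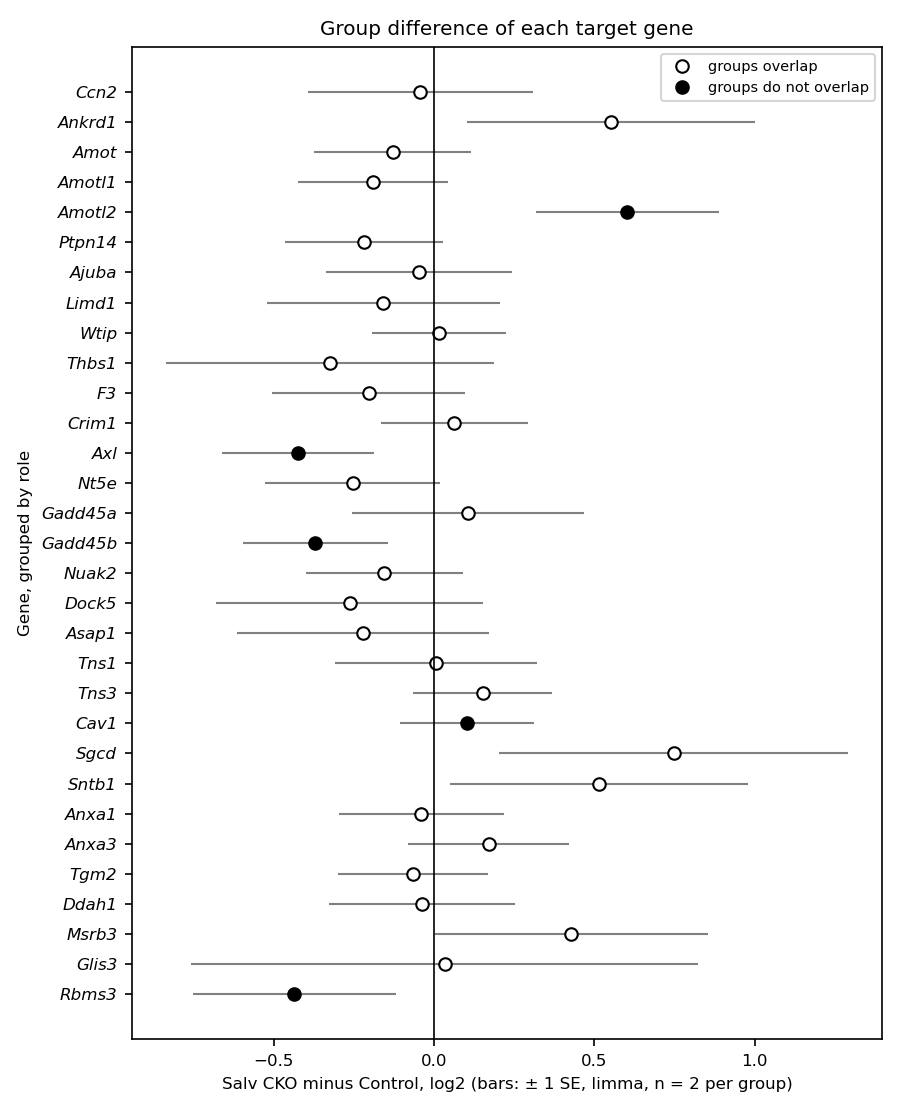
Difference between the groups on the log2 scale (horizontal axis) for each of the 31 measured target genes (vertical axis, grouped by role), with bars of ± 1 SE from limma, n = 2 samples per group. Filled points mark the 5 genes whose groups did not overlap, and the estimates run from -0.43 for Rbms3 to 0.75 for Sgcd.

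TEAD factors bind a short element, GGAATG, or CATTCC when read on the other strand. RefSeq promoter windows (GRCm38.p6, 250 bases before to 50 bases after the annotated start) were found for 22 of the 31 measured members. The element, searched on both strands, was in 9 of these 22 (40.9%) and in 16.6% of the 27025 genes with such a window. The members with it were Ankrd1, Amotl2, Ptpn14, Ajuba, Wtip, Crim1, Axl, Sgcd and Anxa1. A match is a string of letters and no evidence of binding. The stretches shown are from the members whose levels are followed closely below, written 5′ to 3′ on the strand of the gene with the element in capitals, and all lie before the annotated start. The Ankrd1 stretches are chr19:36120022-36120081 and chr19:36119935-36119994 (minus strand), that of Amotl2 is chr9:102717712-102717771 (plus strand), that of Axl chr7:25788934-25788983 (minus strand) and that of Wtip chr7:34133336-34133395 (minus strand).
Ankrd1, far element: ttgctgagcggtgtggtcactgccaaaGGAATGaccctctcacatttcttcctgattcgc
Ankrd1, near element: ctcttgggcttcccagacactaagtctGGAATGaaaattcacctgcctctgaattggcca
Amotl2: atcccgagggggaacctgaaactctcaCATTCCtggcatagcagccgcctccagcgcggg
Axl: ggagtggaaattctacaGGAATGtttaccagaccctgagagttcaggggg
Wtip: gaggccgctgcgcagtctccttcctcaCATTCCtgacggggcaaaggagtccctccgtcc

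In Ankrd1 the elements begin 210 and 123 bases before the start, in Amotl2 65 bases and in Axl 233 bases before it. Wtip held 4 matches, the most among the members, and the one shown begins 100 bases before its start. Of the 9 members with the element, 5 had a positive difference (median 0.016), and of the 13 without it 6 did (median -0.038). The motif share was not tested against other genes.

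Ccn2, the connective tissue growth factor, is a secreted matrix protein and among the most used readouts of YAP activity. The Salv CKO samples had levels of 12.15 and 13.01 and the Controls of 12.64 and 12.60. Both extremes were Salv CKO samples, with the Controls between them. The arrays of Salv CKO 1 spanned 12.13 to 12.16 and those of Salv CKO 2 12.89 to 13.07, so the gap of 0.86 between these samples was wider than the spread of repeated arrays. The groups differed by -0.042 ± 0.35 (SE, limma, adjusted p = 1.00), with a 95% interval from -0.96 to 0.88. Without Salv CKO 1 it was 0.39 and without Salv CKO 2 -0.47.

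Ankrd1, a stretch-responsive ankyrin repeat protein of heart muscle nuclei and sarcomeres, had a different order of samples. Its deposited intensities averaged 11728 and 19112 in the Salv CKO samples and 7614 and 15476 in Controls 1 and 2. The corresponding levels were 13.76, 14.07, 12.78 and 13.95. Control 1 alone was low, and Control 2 lay between the Salv CKO samples, so the groups overlapped. The difference of 0.55 ± 0.45 (SE, limma, adjusted p = 0.999) had a 95% interval from -0.63 to 1.74. It was -0.035 without Control 1, 1.14 without Control 2 and 0.28 with median centring.

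**Figure D2:**
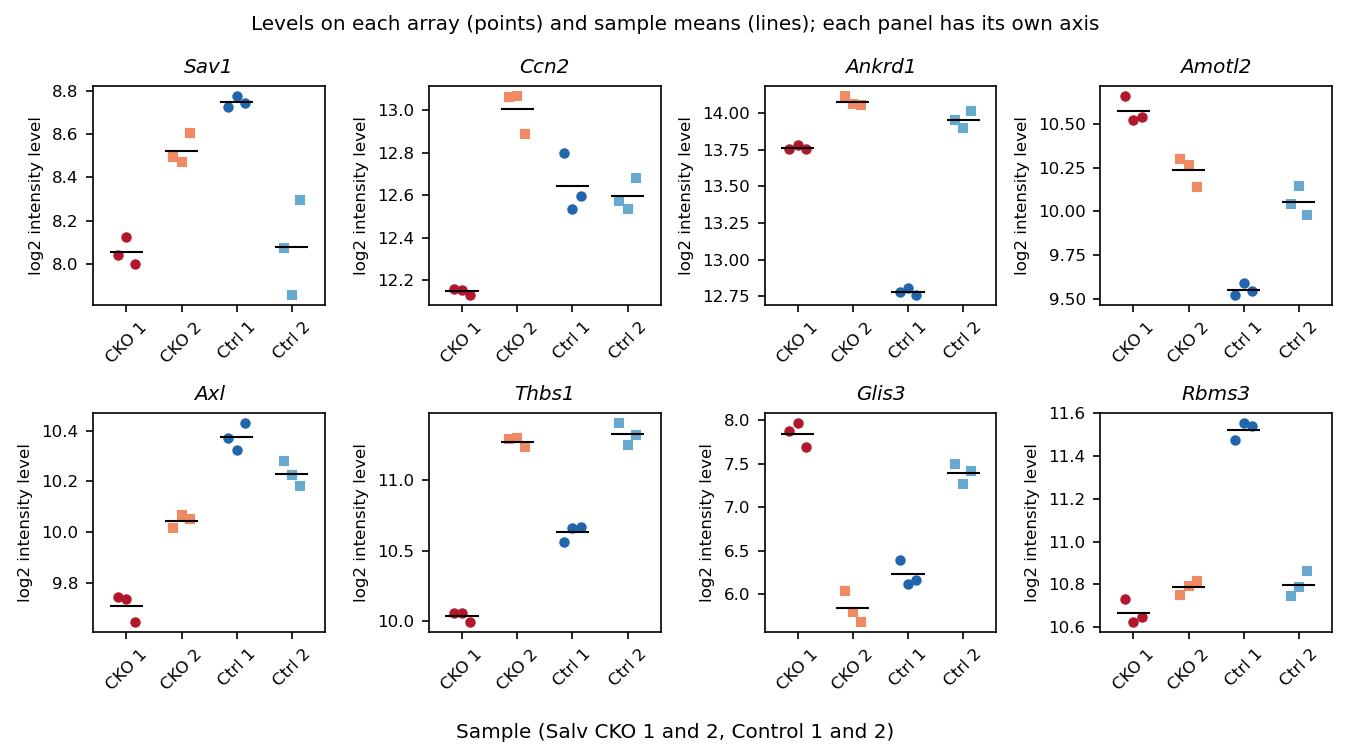
Log2 level (vertical axis, a separate scale in each panel) on each technical array (points) with the mean of each sample (line), for Sav1 and 7 target genes in Salv CKO 1 and 2 (CKO 1, CKO 2) and Control 1 and 2 (Ctrl 1, Ctrl 2). For Glis3 the samples of the same label lie far apart, at 7.84 and 5.84 in Salv CKO, while the Ccn2 Controls nearly coincide at 12.64 and 12.60 and the Sav1 arrays of Control 2 spread from 7.86 to 8.30.

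The angiomotins are scaffold proteins of cell junctions that bind YAP and keep it out of the nucleus. The 3 family members did not share a direction. Amotl2, which is also a YAP target and so part of a feedback loop, stood at 10.58 and 10.24 in the Salv CKO samples and at 9.55 and 10.06 in the Controls. The groups did not overlap, but the nearest samples, Salv CKO 2 and Control 2, were 10.14 to 10.30 and 9.98 to 10.14 on their arrays and so met at single arrays. The difference of 0.60 ± 0.29 (SE, limma, adjusted p = 0.999) was the closest to the threshold among the members, with a 95% interval from -0.15 to 1.36. It was 0.35 without Control 1 and 0.86 without Control 2, and it stayed positive in every setting tried.

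Amotl1 levels were 11.67 and 11.83 in the Salv CKO samples against 12.09 and 11.79 in the Controls. Amot levels were 7.73 and 7.92 against 8.14 and 7.77. In both genes Control 1 was highest and Salv CKO 1 lowest, the reverse of the order of those samples in Amotl2. The differences were -0.19 ± 0.23 for Amotl1 and -0.13 ± 0.25 for Amot (SE). Ptpn14, a phosphatase that binds YAP and retains it in the cytoplasm, had the same extremes, from 9.29 in Salv CKO 1 to 9.80 in Control 1, and differed by -0.22 ± 0.25. Whether Amotl2 differs from Amot and Amotl1 in its response was not tested.

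Ajuba, Limd1 and Wtip encode related LIM domain proteins that inhibit the Lats kinases. Wtip was the steadiest of all members, at 11.78 and 11.69 in the Salv CKO samples and 11.66 and 11.77 in the Controls, a range of 0.12. Its difference was 0.016 ± 0.21, with a 95% interval from -0.54 to 0.57. Limd1 stood at 9.80 and 10.02 against 10.51 and 9.63, so the Controls were the highest and the lowest sample. The Limd1 difference of -0.16 ± 0.36 was 0.28 without Control 1 and -0.60 without Control 2. Ajuba was dim, with mean intensities from 30.0 to 48.3, and its levels of 4.92 and 5.45 against 5.40 and 5.07 gave a difference of -0.047 ± 0.29. On the 3 arrays of Salv CKO 1 alone Ajuba spanned 4.49 to 5.20, so its order of samples is not read.

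Of the extracellular members, Thbs1, the matrix glycoprotein thrombospondin 1, varied most. The Salv CKO samples were at 10.03 and 11.28 and the Controls at 10.63 and 11.33. In both groups the sample numbered 2 was higher, by 1.24 and 0.70, and the arrays of a sample had an SD of 0.055. The group difference of -0.32 ± 0.51 was 0.30 without Salv CKO 1 and -0.94 without Salv CKO 2. F3, tissue factor, which starts blood clotting, was likewise higher in the samples numbered 2, at 10.16 and 10.49 in Salv CKO and 10.24 and 10.82 in Control, and differed by -0.20 ± 0.30. Crim1, a transmembrane protein that binds growth factors of the BMP family, differed by 0.063 ± 0.23, and its other, dimmer probe by -0.13.

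The cell surface members were Axl and Nt5e. Axl, a receptor tyrosine kinase for Gas6, stood at 9.71 and 10.05 in the Salv CKO samples and at 10.37 and 10.23 in the Controls. Both Salv CKO samples lay below both Controls, and the difference of -0.42 ± 0.24 (SE, limma, adjusted p = 0.999) exceeded the gaps of 0.34 and 0.14 within the groups. Its 95% interval ran from -1.05 to 0.20. The other Axl probe, dimmer, read 7.23 and 7.68 against 7.96 and 7.22, so its groups overlapped, with a difference of -0.13. Nt5e, the CD73 enzyme that makes adenosine outside the cell, was higher in Control 2 (10.24) than in the other samples (9.63 to 9.81), and differed by -0.25 ± 0.27.

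Gadd45a and Gadd45b are stress sensors that slow the cell cycle, and whether they differ from each other was not tested. Gadd45b was at 7.48 and 7.44 in the Salv CKO samples against 7.98 and 7.68 in the Controls, without overlap. The difference was -0.37 ± 0.23 (SE, limma, adjusted p = 0.999), and its other probe had the same order of groups with a difference of -0.14. Gadd45a stood at 10.34 and 10.15 against 9.69 and 10.58, so the Controls enclosed the Salv CKO samples. The Gadd45a difference of 0.11 ± 0.36 was -0.34 without Control 1, 0.55 without Control 2 and -0.079 with median centring. Nuak2, a kinase related to AMPK, differed by -0.16 ± 0.24.

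The list of 15 immediate early and handling stress genes, which respond within minutes to injury and dissection, is given beside these genes. In it, 4 of 15 differences were positive (48.6% of all probes) with a median of -0.093, and the groups were apart for 2 of 15 (30.6% of all probes). Fosb was at 6.61 in Salv CKO 1 and at 8.26 to 8.84 in the other samples. Egr2 (6.90) and Klf4 (9.81) were also lowest in Salv CKO 1, and 9 of the 15 genes were, against 27.9% of all probes. Klf4 differed by -0.45 ± 0.27. Fos went the other way, with a difference of 0.46 ± 0.45, and was lowest in Control 1 (10.37). The part of such a stress response in the values of Gadd45a, Gadd45b, Thbs1 and F3 was not tested.

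Members that act on the cytoskeleton had no common direction. The tensin genes Tns1 and Tns3 encode adaptors between integrins and actin. Tns1 stood at 11.01 and 10.43 in the Salv CKO samples against 10.93 and 10.50 in the Controls, a difference of 0.0057 ± 0.31 that turned negative with median centring (-0.20). Here the samples numbered 1 were higher in both groups. Tns3 stood at 9.19 and 9.38 against 9.19 and 9.06, a difference of 0.15 ± 0.22. Dock5, an activator of the GTPase Rac, and Asap1, which inactivates Arf GTPases, differed by -0.26 ± 0.42 and -0.22 ± 0.39. For Asap1 the low samples were Salv CKO 1 (7.16) and Control 2 (7.45), against 7.95 and 8.10 in the others, and for Dock5 these same samples were the high ones, at 6.32 and 6.59 against 5.54 and 5.80.

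Among the membrane genes, Cav1, the main coat protein of caveolae, was the brightest member, at intensities from 35605 to 46055. Its levels of 15.27 and 15.39 in the Salv CKO samples and 15.19 and 15.26 in the Controls did not overlap. The margin between Salv CKO 1 and Control 2 was smaller than the technical SD of 0.032, and the difference was 0.10 ± 0.21, and -0.12 with arrays centred on their median. Sgcd and Sntb1 encode delta-sarcoglycan and beta-1-syntrophin, parts of the dystrophin complex that anchors the muscle membrane. Sntb1 stood at 7.59 and 6.81 against 6.18 and 7.18, a difference of 0.51 ± 0.46 that was 0.015 without Control 1 and 1.01 without Control 2. Sgcd had the largest difference of the members, 0.75 ± 0.54, but the probe was near background, with mean intensities of 24.7 and 21.3 against 7.33 and 18.7.

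The Sgcd value rested on Control 1, whose arrays read intensities of 3 to 12. Its levels were 4.52 and 4.36 in the Salv CKO samples against 2.93 and 4.45 in the Controls. Without Control 1 the difference was -0.012, without Control 2 it was 1.51, and with a pseudocount of 16 in place of 1 it was 0.33. The annexins Anxa1 and Anxa3 bind phospholipids in the presence of calcium, and both were lowest in Control 1. Anxa1 stood at 9.65 and 9.86 against 9.58 and 10.01 (difference -0.039 ± 0.26). Anxa3 stood at 10.26 and 10.40 against 9.95 and 10.37 (difference 0.17 ± 0.25).

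Of the other enzymes, Msrb3, which reduces oxidised methionine, was low in a single sample. Its levels were 11.91 and 11.58 in the Salv CKO samples, and 10.78 and 11.86 in Controls 1 and 2. The difference of 0.43 ± 0.42 became -0.11 without Control 1, 0.97 without Control 2 and 0.22 with median centring. Tgm2, the crosslinking enzyme transglutaminase 2, differed by -0.065 ± 0.23. Ddah1, which breaks down an inhibitor of nitric oxide synthase, differed by -0.038 ± 0.29.

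Glis3, a zinc finger transcription factor, had the widest range of levels among the members, 2.00. Salv CKO 1 and Control 2 were high, at 7.84 and 7.39, and Salv CKO 2 and Control 1 low, at 5.84 and 6.23. The high and the low samples were each 1 of either label, and the group difference was 0.033 ± 0.79. The intensities averaged 211 and 156 in the high samples against 63.0 and 69.7 in the low ones, and no array of one kind reached the other. The sign of its difference was set by the sample left out, -0.97 without Salv CKO 1 and 1.04 without Salv CKO 2. The samples high in Glis3 were also those high in the airway genes Scgb1a1 and Sftpd and low in Sav1, as given above, and what connects these values was not tested.

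Rbms3, an RNA-binding protein, was high in Control 1 alone. Its level there was 11.52, against 10.80 in Control 2 and 10.67 and 10.79 in the Salv CKO samples. The groups did not overlap, but Salv CKO 2 and Control 2 were 0.013 apart, less than the technical SD of 0.049. The difference of -0.43 ± 0.32 was -0.072 without Control 1. The other Rbms3 probe differed by -0.00046 ± 0.21, so the probes of this gene disagree.

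**Figure D3:**
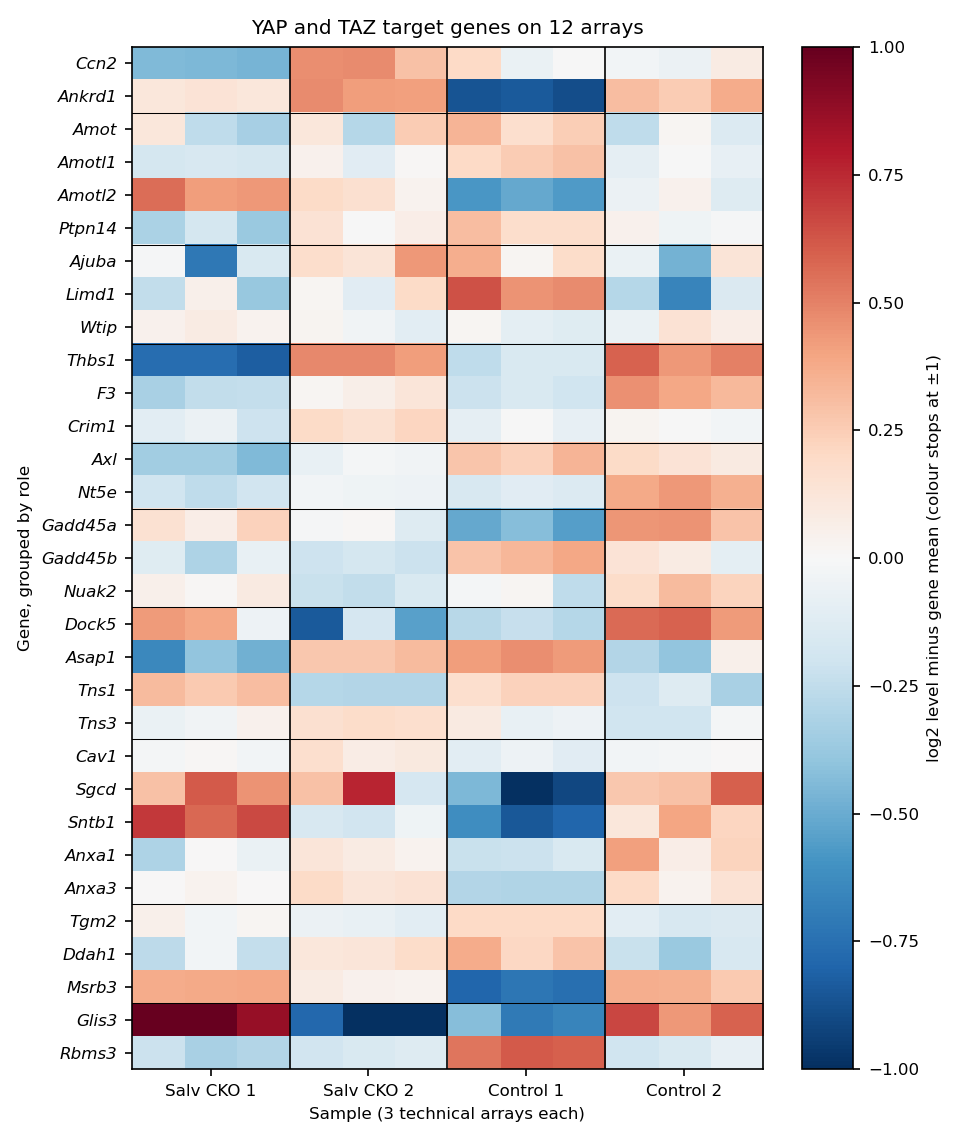
Log2 level of each of the 31 target genes (rows, grouped by role) on the 12 arrays (columns, 3 per sample), as the deviation from the mean of that gene, with the colour scale ending at ± 1. Columns of the same sample mostly look alike. Strong colours fall on Control 1 for Ankrd1, Sgcd and Msrb3 on Salv CKO 1 for Thbs1, and for Glis3 on Salv CKO 1, which is high, and Salv CKO 2, which is low.

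The spread between samples of the same label was wide for these genes. The pooled within-group SD had a median of 0.31 over the 31 members, whereas the SD of technical arrays had a median of 0.075. Over all probes these medians were 0.27 and 0.19, and over the brighter 50% of probes, which hold 28 of the 31 members, they were 0.20 and 0.089. The within-group SD exceeded the technical SD in 30 of 31 members, all but Wtip, and in 56.3% of all probes. The levels ranged over at least 1 between the samples for 8 members (Glis3, Sgcd, Sntb1, Ankrd1, Thbs1, Msrb3, Dock5 and Amotl2), against 26.0% of all probes and 11.3% of the brighter ones. These are descriptions of the samples at hand, and the SE of a member's difference, from 0.21 to 0.79, carries this spread.

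**Figure D4:**
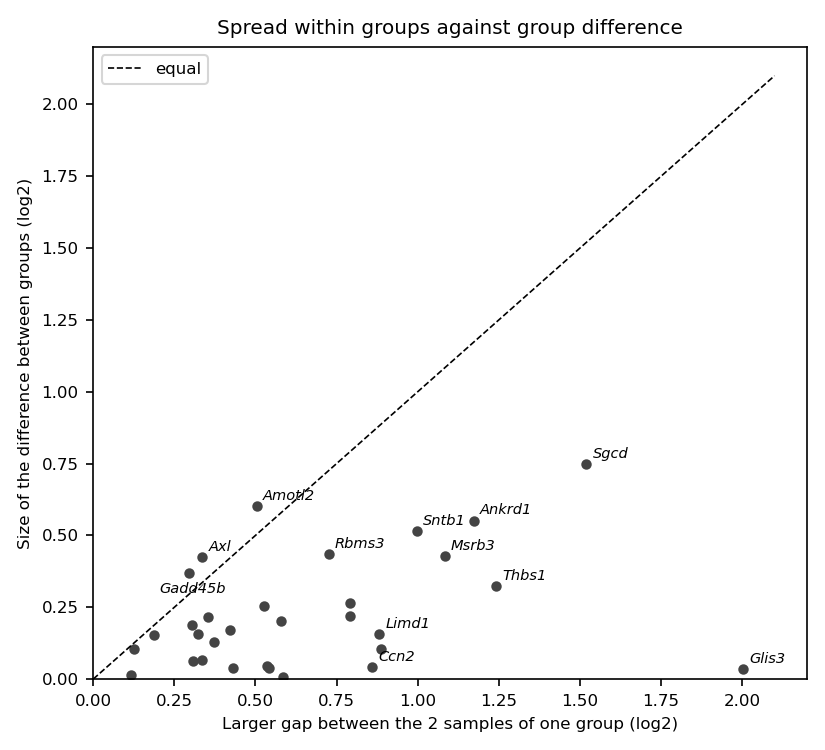
For each of the 31 target genes, the size of the difference between the groups (vertical axis, log2) against the larger of the gaps between the 2 samples of a group (horizontal axis, log2), with a dashed line where they are equal. Amotl2, Axl and Gadd45b lie above the line, and Glis3, with a gap of 2.00 and a difference of 0.033, lies farthest to the right.

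For every gene some sample is lowest and some sample highest, so the counts by sample are given beside the shares over all probes. Salv CKO 1 was the lowest of the 4 samples for 12 members (27.9% of all probes and 30.7% of the brighter 50%). Control 1 was the lowest for 10 (28.5% of all probes). Control 1 was also the highest for 10 members (35.8% of all probes), and Salv CKO 1, Salv CKO 2 and Control 2 were the highest for 7 each (25.1%, 18.7% and 20.5%). Salv CKO 2 was lowest for 5 (18.7%) and Control 2 for 4 (24.8%). By role, the 3 measured ligands and extracellular members and both cell surface members were lowest in Salv CKO 1, as were 3 of 4 angiomotins and YAP-binding inhibitors. The count was 0 of 3 for growth arrest and stress members, 0 of 5 for membrane members and 0 of 3 for other enzymes. Each remaining role had 1. Before normalization the 75th percentiles of the arrays were 348 to 401 in Salv CKO 1, 457 to 542 in Salv CKO 2, 408 to 474 in Control 1 and 360 to 411 in Control 2. Their medians, 64 to 78, 68 to 88, 60 to 73 and 58 to 70 in the same order, overlapped between all samples. The part of array brightness in the levels was not tested.

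Other genes of the pathway gave 0 calls in either direction in limma, as did all lists below. Of 19 Hippo core and upstream components measured, Ptpn14 among them, 3 differences were positive (48.6% of all probes) and 2 genes separated the labels (30.6%), and the median difference was -0.072. Mob1a, the co-activator of the Lats kinases, differed by 0.90 ± 0.60 through a low value of 5.58 in Control 1. Wwtr1, which encodes TAZ itself, stood at 13.16 and 13.33 in the Salv CKO samples against 13.46 and 13.49 in the Controls, a difference of -0.23 ± 0.21. Taok3 and Dchs1, a kinase and a protocadherin upstream of the core, differed by -0.36 and -0.31. No probe was named for Yap1 or Stk3.

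Among 11 TEAD factors and nuclear cofactors, Wwtr1 among them, 4 differences were positive (48.6% of all probes) and 7 genes separated the labels (30.6% of all probes), and the median difference was -0.15. Tead4 differed by 0.53 ± 0.28, Vgll1 by 0.48 ± 0.23 and Runx1 by -0.26 ± 0.21. The Tead4 and Vgll1 probes were dim, with levels of at most 4.95 and 2.47. Serum response factor and its Mrtf partners share many targets with YAP. The list of these factors and genes they drive had 3 of 12 positive differences (48.6% of all probes) and 2 without overlap (30.6%), with a median of -0.14. The genes of the factors themselves were all among the negative ones. Tagln, a dim probe, differed by -2.00 there. Cnn1 was near background in every sample, with levels of at most 1.88, and its difference is not read. Tpm4 and Flna differed by -0.29 and -0.17. Genes of the TGF-beta response had 4 of 13 positive, against 48.6% of all probes, and 7 without overlap, against 30.6%, with a median of -0.27. The Col1a1 probe, 1 of these 7, was near background, at levels of at most 2.52. In that list Tgfb1 differed by 0.51 ± 0.23, Smad7 by -0.59 ± 0.34, Timp1 by -0.38 ± 0.26 and Skil by -0.36 ± 0.25.

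Many target genes are expressed outside heart muscle, so marker lists of other cells are given beside them. Epicardial and mesothelial markers had 4 of 10 positive differences (median -0.23), 6 of the 10 were lowest in Salv CKO 1 (27.9% of all probes), and their summed normalized intensity was 4429 and 5592 in the Salv CKO samples and 5347 and 5110 in the Controls. Wt1, the epicardial transcription factor, differed by -0.51 ± 0.27, whereas Aldh1a2 and Tbx18 of the same list differed by 0.36 and 0.22. Endothelial markers had 2 of 10 positive differences (median -0.099), with sums of 37860 and 39030 against 42130 and 39510. Fibroblast markers had 4 of 10 positive (median -0.045), with sums of 87820 and 92500 against 89520 and 92490. The fibroblast receptor gene Pdgfra was near background in Salv CKO 1 (1.01) and Control 1 (2.14). It was bright in Salv CKO 2 (10.72) and higher in Control 2 (8.71). Its arrays of Control 2 were uneven: their mean intensity was 1041, near the 1099 of Nt5e, whose level there was 10.24. The other fibroblast markers ranged over at most 0.83 between the samples, so this Pdgfra pattern was not shared by the list.

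Heart muscle markers had 1 of 6 positive (median -0.11), with sums of 178500 and 180800 against 185100 and 193100. Smooth muscle and pericyte markers had 2 of 7 positive (median -0.22), with sums of 6430 and 6617 against 7313 and 7048. Macrophage markers had 4 of 8 positive (median 0.018), with sums of 7099 and 7377 against 6799 and 7327. Adipocyte markers had 2 of 9 positive (median -0.96), with sums of 18020 and 13770 against 23790 and 18690. The positive ones, Lep and Pparg, were near background, at levels of at most 3.64 and 1.31. Fabp4 was the largest part of the adipocyte sums and differed by -0.21 ± 0.21. Larger negative differences were those of Ucp1, -1.37 ± 0.82, and Cfd, -1.80 ± 0.48. Ucp1 stood at 11.95 and 9.75 in the Salv CKO samples against 12.71 and 11.74 in the Controls. Erythroid markers had 3 of 3 positive (median 0.74), with sums of 9067 and 13620 against 10970 and 5251, and lung and thymus markers had 2 of 10 positive (median -0.29). The part of any of these cell types in the values of the target genes was not tested.

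**Figure D5:**
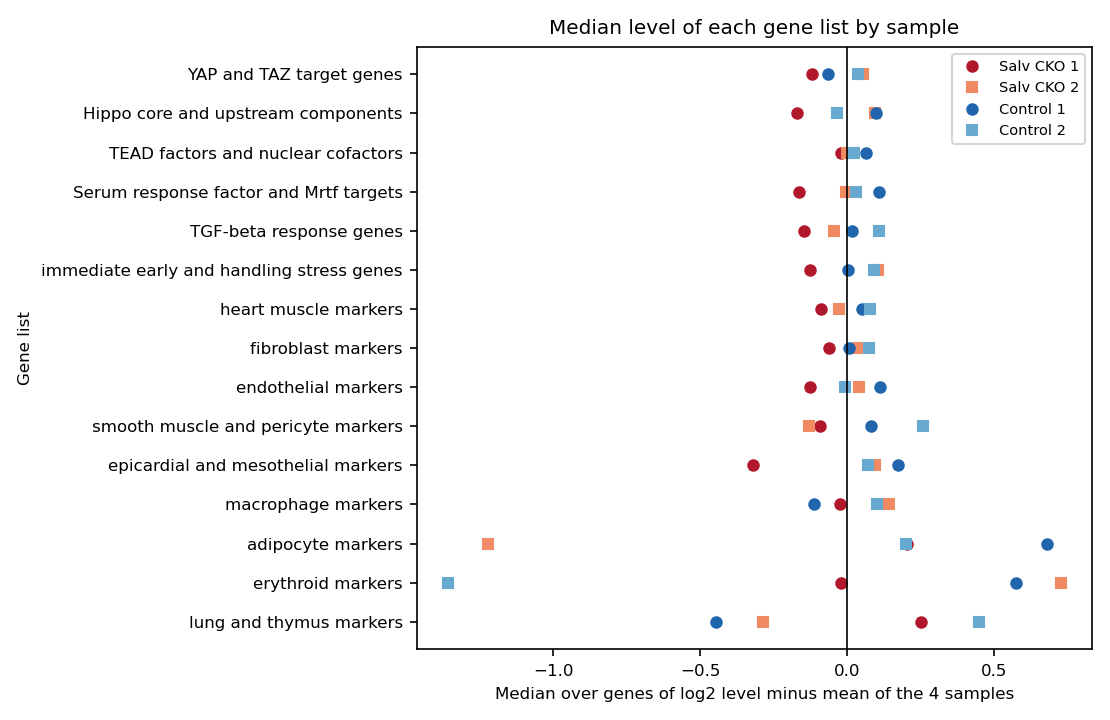
Median over the genes of each list (rows) of the log2 level minus the mean of the 4 samples (horizontal axis), for Salv CKO 1, Salv CKO 2, Control 1 and Control 2. The YAP and TAZ target genes lie between -0.12 and 0.052, adipocyte markers reach -1.22 in Salv CKO 2 and erythroid markers -1.36 in Control 2, and in the adipocyte row the points of Salv CKO 1 and Control 2 nearly coincide at 0.20.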

How the data were processed

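The deposited intensities are whole numbers from -10 to 65474 for 26423 probes on 12 arrays. Negative values imply that the authors subtracted a background, and their scanner and normalization are not stated in the labels. The arrays were quantile normalized between arrays. Values below the lowest positive value (0.0833) were set to it, log2(value + 1) was taken, and a sample's 3 technical arrays were averaged. Groups were compared with limma 3.58.1 (lmFit and eBayes, R 4.3.3), with 2 residual and 2.60 prior degrees of freedom, and Benjamini-Hochberg adjustment ran over every probe. The number of samples limits the precision. The design text calls the samples biological replicates and says no more of their origin, so a p-value covers only the spread among them. Alternatives were other scalings, a pseudocount of 16, leaving out the dimmest 25% of probes, the median of technical arrays, fits of all 12 arrays, another variance model, a replicate block, the mean over probes and each sample left out.

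Of the probes, 20377 had 1 symbol, 0 several and 6046 none. Through the RefSeq table of GRCm38.p6, a symbol match was found for 18213, a match to a unique synonym for 2126 and no match for 38. The members and lists were chosen with earlier results of these data known. Values in every sample were to be given for Sav1, Ccn2, Ankrd1, members with a relative in the list, and other members with an unadjusted p under 0.05, a difference of at least 0.5 or no overlap. Other members shown in full were chosen after their values were seen. Of each other pathway list, up to 4 genes with the smallest p are named. The fit was tested on simulated data with changes far larger than the differences of the members. That test therefore does not show whether changes of their size would be found. A planned description of protein motifs was not made, since protein sequences were not used here. Figures were drawn with matplotlib 3.10.9.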

Additional observations from a re-analysis of the deposited data

How the results depend on the processing

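No member passed an adjusted p of 0.05 in limma in any setting. The smallest adjusted p (limma) was 0.243, for Amotl2 and Axl, when all 12 arrays were fitted with a random block per sample. In that fit 4 of 31 members had an unadjusted p under 0.05 (8.33% of all probes). It takes the same correlation within a sample, 0.54, for every probe. Most members varied far more between samples than between arrays, so its p-values for them can be too small. Over all probes, the count of 0 calls (1047 at an unadjusted p under 0.05) became 10 (6 higher, 4 lower) with median centring, 11 (8 higher, 3 lower) without normalization and 61 (34 higher, 27 lower) with the random block. With median centring 6 members were positive (40.7% of all probes). Leaving out normalization put the median difference of all probes at 0.11. In that setting 13 members were positive (64.2% of all probes) and 2 did not overlap (27.6%). Deviations of samples with the same replicate number from their group means correlated at -0.25 over probes, so these deviations tended to have opposite signs. Whether such samples shared more than the number was not tested. With the replicate block, 0 members passed (limma, smallest adjusted p = 1.00) and 743 probes had an unadjusted p under 0.05. The crossed pairing, of Salv CKO 1 with Control 2 and of Salv CKO 2 with Control 1, was chosen after seeing the data. It called 0 probes, and 1549 (5.86%) had an unadjusted p under 0.05 in limma, with 1 member, Amotl2, among them. Amotl2 was also the 1 member under 0.05 unadjusted with the other variance model (3.05% of all probes), and Sgcd the 1 without normalization (4.48%).

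With 1 sample left out, the count of members that passed was 0 throughout, the members' median lay between -0.091 (Salv CKO 2 left out) and 0.025 (Control 2 left out), positive members from 12 to 18, and members without overlap from 15 to 21, against 55.3% to 76.1% of all probes. Of 31 members, 7 kept their sign in every setting: Amotl1, Amotl2, Ptpn14, Axl, Gadd45b, Sntb1 and Rbms3. With all samples, 18 of 310 member values changed sign. With median centring these were Ajuba (0.10), Wtip (-0.20), Crim1 (-0.046), Gadd45a (-0.079), Tns1 (-0.20), Tns3 (-0.0011), Cav1 (-0.12), Anxa3 (-0.0082) and Glis3 (-0.037). Without normalization they were Ajuba (0.29), Wtip (-0.016), Tns1 (-0.0093) and Ddah1 (0.13). With the median of technical arrays they were Ccn2 (0.023), Tns1 (-0.0068) and Anxa1 (0.0065), and with the mean over probes Crim1 (-0.031) and Tns1 (-0.0043). The cause was not tested.

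The sign of 22 members changed with a sample left out. Their differences then ran from -0.47 to 0.39 for Ccn2, -0.035 to 1.14 for Ankrd1, -0.31 to 0.057 for Amot and -0.32 to 0.22 for Ajuba. They ran from -0.60 to 0.28 for Limd1, -0.042 to 0.073 for Wtip, -0.94 to 0.30 for Thbs1 and -0.49 to 0.086 for F3. The ranges were from -0.091 to 0.22 for Crim1, -0.52 to 0.0095 for Nt5e, -0.34 to 0.55 for Gadd45a and -0.32 to 0.0064 for Nuak2. The values went from -0.66 to 0.13 for Dock5, -0.62 to 0.17 for Asap1, -0.29 to 0.30 for Tns1 and -0.012 to 1.51 for Sgcd. Ranges ran from -0.25 to 0.18 for Anxa1, -0.041 to 0.38 for Anxa3, -0.23 to 0.10 for Tgm2 and -0.31 to 0.23 for Ddah1. The range was from -0.11 to 0.97 for Msrb3 and -0.97 to 1.04 for Glis3.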
